A study of Mus musculus with 4 samples.

Results

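The dectin family lectins followed here were Clec7a, Clec4n, Clec4a2, Clec4b1, Clec4d, Clec4e, Clec1b, Clec2d and Clec2h, C-type lectin genes of the dectin-1 and dectin-2 clusters. They were chosen by name, with earlier results of these data known, and with every probe set that carries 1 gene symbol. They had 14 of the 20380 such probe sets on the array and were 9 of 12393 genes, and all 9 passed the filter on dim genes, as did 8145 genes in total. A further probe set with the symbols of several lectins was left out.

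Macrophages had been sorted by flow cytometry from gastrointestinal stromal tumours (GIST, a sarcoma of the gut wall) of mice called GIST mice in the labels. The labels name no strain, tumour-driving allele or age. One group received vehicle and the other imatinib, a kinase inhibitor, at 600 mg/L in the drinking water. Treatment lasted 2 weeks. Each group of 8 mice was pooled after sorting and measured on 2 Affymetrix arrays from 200 ng of RNA, although the titles call the arrays biological replicates. So the p-values reflect how far duplicate arrays of a pool differ, which may be technical only, and the spread between mice or pools was not measured. Only 2 arrays per group limit the precision.

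C-type lectin receptors bind sugars, glycolipids or proteins through a lectin-like domain. Dectin-1 (Clec7a) carries its own activating tyrosine motif, while dectin-2 (Clec4n), MCL (Clec4d) and Mincle (Clec4e) signal through the Fc receptor gamma chain Fcer1g. Both routes lead to the kinase Syk and the adaptor Card9, and from there to NF-kappaB and cytokine genes. DCIR1 (Clec4a2) carries an inhibitory motif that recruits phosphatases such as SHP-1 (Ptpn6). CLEC-2 (Clec1b) binds podoplanin and is best known from platelets. Clr-b (Clec2d) and Clr-f (Clec2h) are not sugar receptors of this kind but ligands of NKR-P1 receptors of natural killer cells, and Clr-f is known from gut epithelium.

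Imatinib divided the family. Clec1b, Clec4n, Clec4b1, Clec4a2 and Clec7a were higher, Clec2d and Clec2h were lower, and Clec4d and Clec4e did not pass the test. Thus 5 of 9 lectins were called higher, where 6.8% of the 8145 tested genes were (limma, Benjamini-Hochberg adjusted p below 0.05), and 2 of 9 were called lower, where 8.73% were. As the lectins were chosen with earlier results of these data known, these shares describe them and do not test the family. The median log2 difference of the 9 genes was 0.74, beside -0.02 over all tested genes. All differences are imatinib minus vehicle on the scale log2(signal + 32), which understates the change of dim genes. The vehicle and imatinib arrays did not overlap for any lectin by its brightest probe set, as they did not for 56% of all tested genes.

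**Figure D1:**
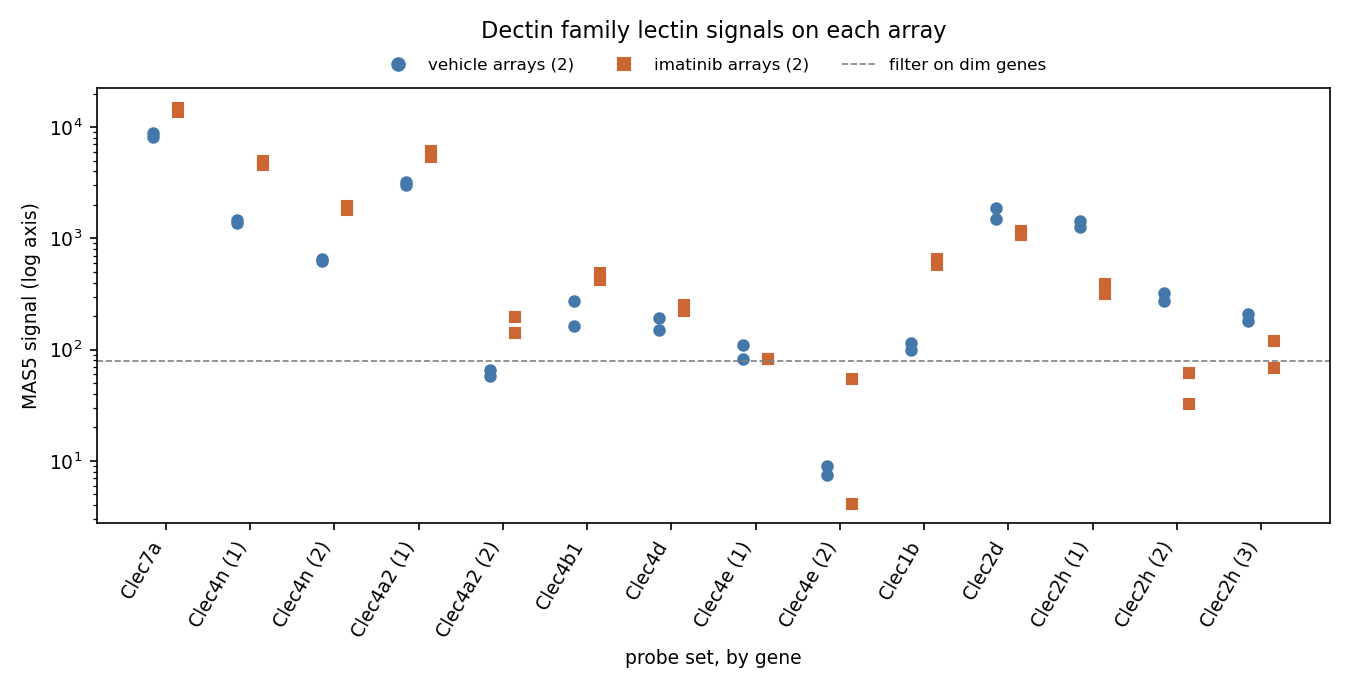
MAS5 signal (log axis) of the 14 lectin probe sets on the 2 vehicle arrays (circles) and the 2 imatinib arrays (squares), with the filter on dim genes as a dashed line at 79.8; numbers in brackets count the probe sets of a gene. Both Clec4n probe sets and the Clec1b probe set lay far higher with imatinib, and all 3 Clec2h probe sets lay lower.

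The promoters below are shown for 3 lectins that rose and for Clec4e, which shares the dectin-2 cluster with Clec4b1 and Clec4a2 and was not called. They are the 250 bases before the annotated start, from RefSeq with build GRCm38.p6, 5′ to 3′ on the strand of the gene. Capitals mark matches to GAGGAA, the core of PU.1 sites, or to TTGCNNAA, a C/EBP consensus, on either strand. The positions are chr6:129472780-129473029 (minus strand) for Clec7a, whose other annotated start lies close by, chr6:123049712-123049961 (plus) for Clec4b1, chr6:123122440-123122689 (plus) for Clec4a2 and chr6:123289872-123290121 (minus) for Clec4e.
Clec7a: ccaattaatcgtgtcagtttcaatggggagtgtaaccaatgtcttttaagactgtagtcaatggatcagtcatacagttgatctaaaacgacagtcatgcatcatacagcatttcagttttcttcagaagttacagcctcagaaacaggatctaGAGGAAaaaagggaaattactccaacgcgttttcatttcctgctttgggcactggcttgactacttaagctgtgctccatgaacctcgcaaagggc
Clec4b1: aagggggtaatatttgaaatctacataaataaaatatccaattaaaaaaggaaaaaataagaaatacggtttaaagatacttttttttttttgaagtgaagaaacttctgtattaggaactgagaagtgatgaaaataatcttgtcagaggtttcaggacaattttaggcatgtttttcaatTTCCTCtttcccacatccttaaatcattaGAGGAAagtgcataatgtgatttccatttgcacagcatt
Clec4a2: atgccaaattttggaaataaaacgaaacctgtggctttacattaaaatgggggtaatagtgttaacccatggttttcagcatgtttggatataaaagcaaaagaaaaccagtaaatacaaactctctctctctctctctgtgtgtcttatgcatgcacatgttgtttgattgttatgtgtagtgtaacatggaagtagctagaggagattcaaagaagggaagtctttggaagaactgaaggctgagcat
Clec4e: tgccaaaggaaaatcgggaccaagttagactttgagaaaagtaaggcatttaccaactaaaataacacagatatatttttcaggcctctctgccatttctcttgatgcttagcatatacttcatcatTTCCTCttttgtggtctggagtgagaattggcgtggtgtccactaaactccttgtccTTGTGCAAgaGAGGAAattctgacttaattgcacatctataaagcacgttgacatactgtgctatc

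A promoter entry was found for 8 of the 9 lectins, Clec4n being the exception. GAGGAA occurred on either strand in 4 of these 8 windows (Clec7a, Clec4b1, Clec4d and Clec4e) and in 23.3% of 32851 mouse promoter windows of the same length. TTGCNNAA occurred in the Clec4e window alone among the 8, 59 to 66 bases before the start, and in 9.56% of all windows. Clec4b1 and Clec4e each held GAGGAA on both strands, although Clec4b1 rose and Clec4e was not called. Of the other letters searched on both strands, the AP-1 motif TGANTCA was found for Clec2h (6.75% of all windows) and the STAT motif TTCNNNGAA for Clec4a2 (7.02%). The IRF motif, GAAA repeated after a gap of any 2 bases, was found for Clec4b1 and Clec2d (2.98%), and TATAAA for Clec4a2, Clec4e and Clec1b (12.4%). In Clec4b1 the IRF match, 66 to 75 bases before the start, overlaps the GAGGAA match at 63 to 68 bases. No motif was shared by all rising lectins with an entry.

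Clec7a, the beta-glucan receptor dectin-1, was bright, at 8121 and 8907 in the vehicle pool and at 14824 and 13632 in the imatinib pool. Both imatinib arrays lay above both vehicle arrays, and the groups' means were 8514 ± 556 and 14228 ± 842 (SD, n = 2). The rise was 1.67-fold, with a log2 difference of 0.74 ± 0.08 (SE, adjusted p = 9.6e-05).

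Clec4n, the mannan receptor dectin-2, had 2 probe sets. The brighter gave 1471 and 1382 with vehicle and 4937 and 4578 with imatinib. The dimmer gave 623 and 652 with vehicle and 1947 and 1787 with imatinib. Neither probe set overlapped between groups, and both passed when each probe set was tested on its own (6.1% of 12483 probe sets were higher that way), with log2 differences of 1.72 ± 0.09 and 1.50 ± 0.10 (SE). In the gene-level fit Clec4n rose 3.28-fold (adjusted p = 3.2e-07). Its difference was the 8th largest rise of the 8145 genes. Both probe sets have name endings (_s_at and _a_at) that mark possible hits on several transcripts, so no probe set of Clec4n free of this was measured.

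Clec4a2, the inhibitory receptor DCIR1, had signals of 3217 and 3017 with vehicle and 6039.8 and 5383 with imatinib on its brighter probe set. Its second probe set was dim with vehicle, at 65.6 and 57.4, and reached 140 and 196 with imatinib. Both sets lay higher on every imatinib array. The gene rose 1.82-fold (log2 difference 0.87 ± 0.09, SE, adjusted p = 5.2e-05) on the brighter set. The dimmer set was below the filter on both vehicle arrays and passed only through imatinib, so its own test is not used.

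Clec4b1, a DCAR gene that lies next to Clec4a2, was measured at 271 and 162 with vehicle and 423 and 487 with imatinib. The vehicle arrays differed from each other by more than the imatinib arrays did, with coefficients of variation of 35.5% and 9.84%, and the groups did not overlap. Clec4b1 rose 2.01-fold (log2 difference 1.00 ± 0.21, SE, adjusted p = 0.0071). This call was lost without the filter on dim genes (adjusted p = 0.051) and without a mean-variance trend (adjusted p = 0.064).

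Clec4d and Clec4e encode MCL and Mincle, receptors of mycobacterial and other glycolipids that act together. Clec4d gave 194 and 152 with vehicle and 249 and 222 with imatinib. Its log2 difference was 0.39 ± 0.19 (SE, adjusted p = 0.21, 95% interval -0.03 to 0.82), and it was 0.24 without vehicle replicate 2. With array medians set equal it passed as higher (0.55, adjusted p = 0.0498), so that 6 lectins were higher and 2 lower, where 12.9% and 6.04% of all genes were. Clec4e gave 110.45 and 82.8 with vehicle and 82.0 and 82.5 with imatinib, close to the filter on dim genes at 79.8. The arrays of Clec4e therefore missed overlapping by less than 1 signal unit, and its log2 difference was -0.16 ± 0.26 (SE, adjusted p = 0.75, interval -0.74 to 0.42). It was -0.0070 without vehicle replicate 1 and -0.32 without vehicle replicate 2. A second Clec4e probe set was below the filter on each array, with 7.51 and 9.06 against 4.13 and 53.9. The intervals leave room for a rise of Clec4d or a change of Clec4e in either direction.

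Clec1b, the podoplanin receptor CLEC-2, showed the widest separation among the lectins. With vehicle its signal was 99.7 and 114, and with imatinib 652 and 581. It was dim in the vehicle pool and well above the filter on both imatinib arrays. The rise was 4.67-fold on the log2(signal + 32) scale, with a log2 difference of 2.22 ± 0.16 (SE, adjusted p = 5.1e-06), and 5.78-fold as a plain ratio of means. Among all tested genes it had the 2nd largest rise.

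Clec2d, which encodes Clr-b, fell. It gave 1865 and 1478 with vehicle and 1063 and 1154 with imatinib, without overlap, and its log2 difference was -0.57 ± 0.12 (SE, adjusted p = 0.0077). The fall rests in part on vehicle array 1: without it the difference was -0.41 (adjusted p = 0.059). Clec2d was also not called without a mean-variance trend (adjusted p = 0.089) or with all probe sets tested without the filter (adjusted p = 0.057).

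Clec2h, which encodes Clr-f, fell, and its 3 probe sets all gave lower signals with imatinib. The brightest gave 1259 and 1435 with vehicle and 392 and 313 with imatinib. The second gave 319 and 272 against 32.7 and 62.3, and the third 182 and 208 against 67.7 and 119.6. No probe set overlapped between groups, and tested on their own (7.42% of 12483 probe sets were lower that way) the brightest differed by -1.85 ± 0.14 and the third by -0.88 ± 0.25 on the log2 scale (SE). The third passed with the filter (adjusted p = 0.041) but not with all probe sets tested (adjusted p = 0.156). The second was below the filter on both imatinib arrays and passed only through vehicle, so its own test is not used. At gene level the signal was 3.60-fold lower (adjusted p = 4.6e-06), the 81st largest decrease among the tested genes.

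Ordered by their differences, the lectins ran from Clec1b through Clec4n, Clec4b1, Clec4a2, Clec7a, Clec4d, Clec4e and Clec2d to Clec2h. The 95% intervals of neighbours in this order overlapped except between Clec4n (1.52 to 1.91) and Clec4b1 (0.55 to 1.46) and between Clec2d (-0.83 to -0.31) and Clec2h (-2.14 to -1.55). Clec4b1, Clec4a2 and Clec7a were thus not separated from each other by their spread.

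**Figure D2:**
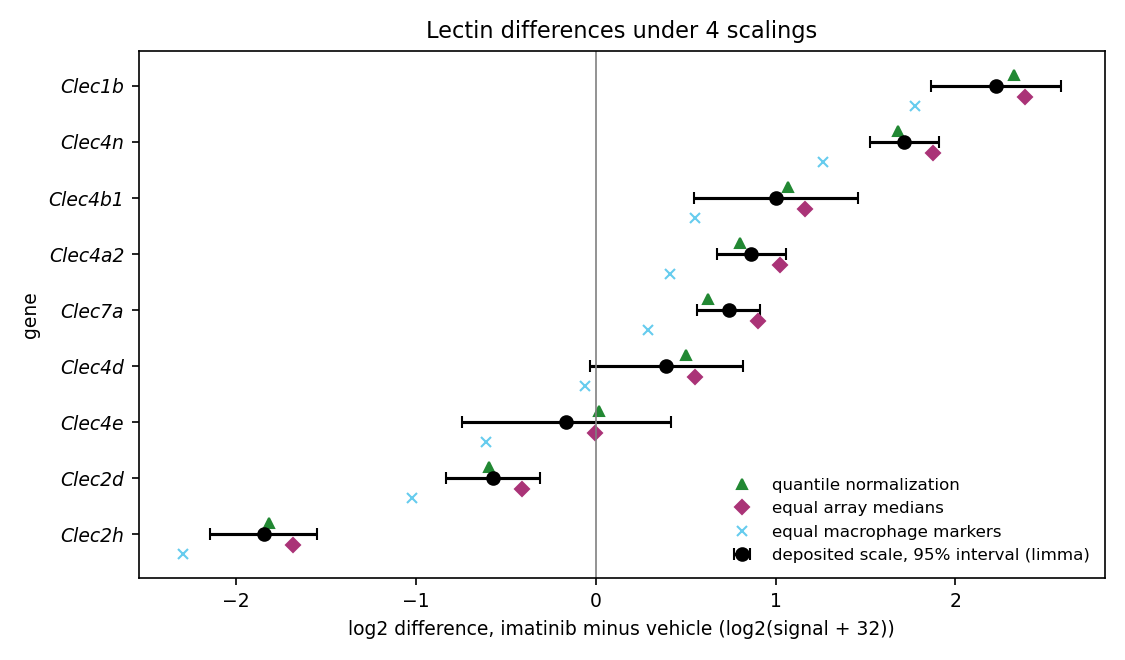
Log2 difference of each lectin gene, imatinib minus vehicle, on the deposited scale (black points with 95% limma intervals) and under 3 other scalings (triangles, diamonds and crosses). On each of the 4 scalings Clec1b, Clec4n, Clec4b1, Clec4a2 and Clec7a lie above 0 and Clec2d and Clec2h below it, while Clec4d and Clec4e change sign.

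The scale of the arrays matters for sizes. The array medians over all probe sets differed by -0.16 between groups, and macrophage identity genes were higher by a mean of 0.45. This mean includes Itgam (0.97), which passed the filter on dim genes only through imatinib. A macrophage scale without Itgam was not run. With the macrophage mean, Itgam included, set equal on all arrays, only 112 of 8145 genes (1.38%) were higher and 5100 (62.6%) were lower. The 5 lectins that rose were still higher there, namely Clec1b (1.77), Clec4n (1.27), Clec4b1 (0.55, adjusted p = 0.044), Clec4a2 (0.42) and Clec7a (0.29, adjusted p = 0.0068). Clec2d (-1.02) and Clec2h (-2.30) were still lower, Clec4e was at -0.61 (adjusted p = 0.063), and Clec4d turned to -0.057. A lower value on that scale is relative to the macrophage genes.

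In the RefSeq gene order of chromosome 6 the lectins lie in 2 groups. Clec4b1, Clec4a2, Clec4n, Clec4d and Clec4e follow each other in this order, with Clec4b2 between Clec4a2 and Clec4n. Clec4b2 was not measured here. The 3 measured genes at the Clec4b1 end rose, and Clec4d and Clec4e at the other end were not called. In the other group Clec2h, Clec2d, Clec1b and Clec7a are spread over 19 genes, of which 9 were measured. Klrb1b, which encodes the NKR-P1B receptor for Clr-b, lies between Clec2h and Clec2d and was higher (475 and 409 against 649.9 and 648, log2 difference 0.53 ± 0.13, SE, adjusted p = 0.018). Its probe set ends in _s_at, so it may hit several transcripts. With macrophage identity genes set equal, Klrb1b differed by 0.08 and was not called. Clec2i, the next measured gene towards Clec2d, did not pass (160.02 and 83.6 against 197 and 220.4, 0.69 ± 0.26, adjusted p = 0.10).

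**Figure D3:**
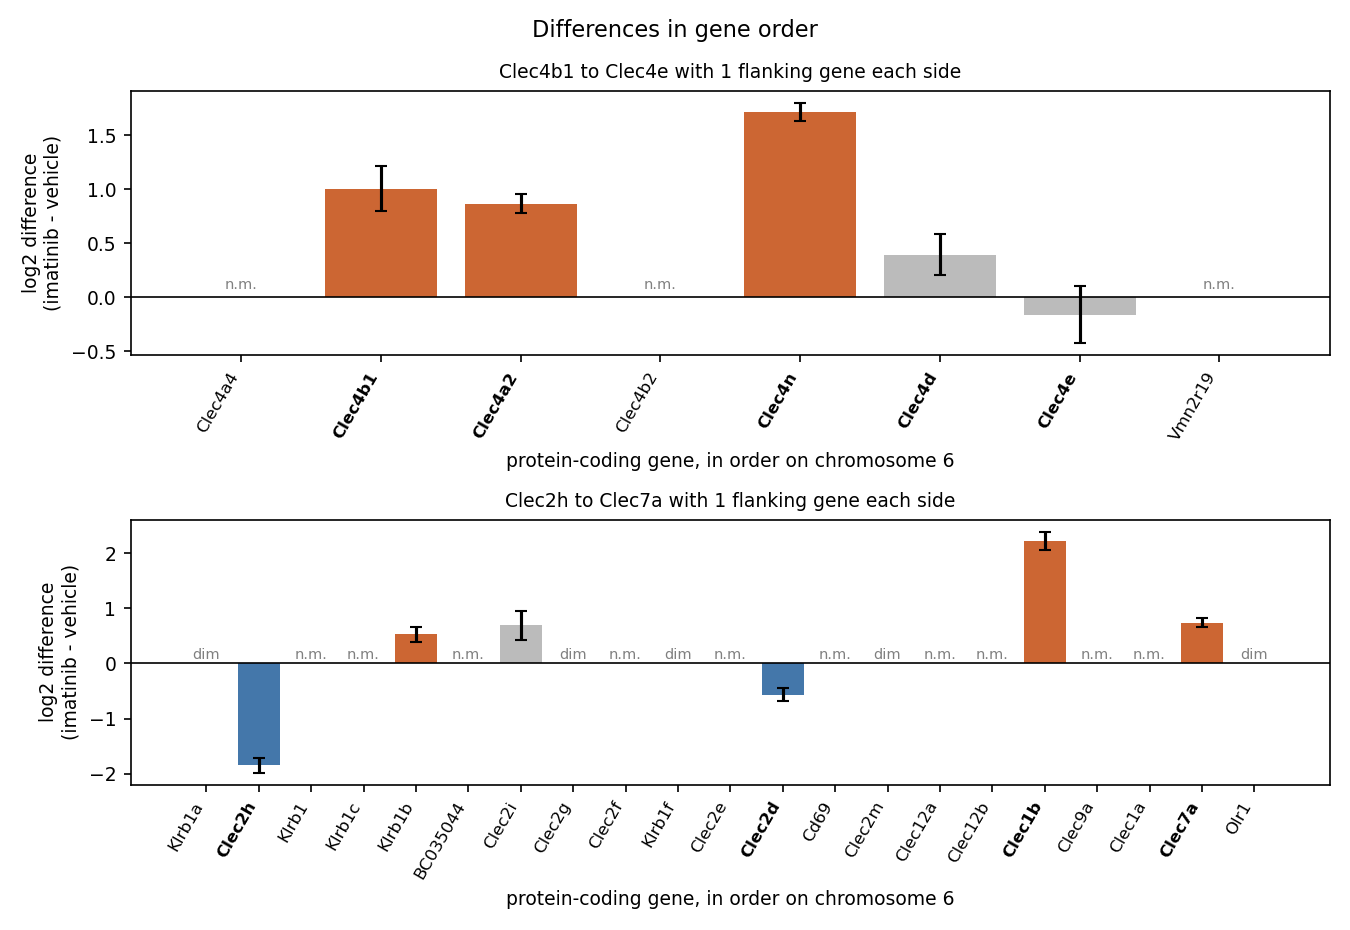
Log2 difference, imatinib minus vehicle, with its SE (bars and whiskers) for protein-coding genes in chromosomal order around the lectins (bold names), coloured by call (orange higher, blue lower, grey not called); "dim" marks genes below the filter and "n.m." genes not measured by a probe set with 1 symbol. Rises and falls are mixed along the lower panel, from Clec2h at -1.85 to Clec1b at 2.22.

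In the list of adaptors and proximal signalling genes, the adaptors and the kinase Syk were higher by small amounts. Fcer1g gave 10603 and 10870.0 with vehicle and 15629 and 13690.1 with imatinib. The other adaptor gene of the list, Tyrobp, encodes DAP12, which is not among the routes given above for the lectins. Its signals were 11361 and 12453 against 16754 and 15475. The groups did not overlap for either, and the log2 differences were 0.45 ± 0.08 and 0.44 ± 0.08 (SE, adjusted p = 0.0034 and 0.0033). Syk rose from 698 and 669 to 952 and 917 (0.43 ± 0.11, adjusted p = 0.019), and Bcl10, the partner of Card9, rose by 0.33 ± 0.09. Of 16 tested members of this list 4 were higher and 0 lower, where 6.8% and 8.73% of all genes were, with a median of 0.03. Plcg2 (-0.11), Vav1 (-0.14) and Src (-0.43, adjusted p = 0.12) did not pass. With macrophage identity genes set equal, 0 of the 16 were higher and 8 lower (limma, adjusted p below 0.05), where 1.38% of all genes were higher and 62.6% lower. Card9 was not measured by a probe set with 1 symbol.

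The phosphatases and other brakes of these receptors showed no call in 8 tested genes (limma, 1 at an unadjusted p below 0.05 in each direction). Of all tested genes 15.5% were called in either direction. Ptpn6, which DCIR1 recruits, gave 1989.7 and 1993 with vehicle and 2111 and 2145 with imatinib (0.09 ± 0.08, SE, adjusted p = 0.52). The list median was 0.10.

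Of 23 tested transcription factor and target genes of dectin signalling, 10 were higher and 0 lower, where 6.8% and 8.73% of all genes were, with a median of 0.29 beside -0.02 over all genes. Cxcl1, a neutrophil attractant, gave 396 and 412 with vehicle and 1028 and 1105 with imatinib (1.33 ± 0.12, SE). The prostaglandin synthase gene Ptgs2 rose by 0.98, the early response gene Egr2 by 0.88 and the monocyte attractant gene Ccl2 by 0.86. The NF-kappaB subunits Rela (0.10), Rel (0.03), Relb (0.01) and Nfkb2 (-0.10) did not pass, nor did Tnf (-0.10) and Il6 (0.56, adjusted p = 0.17). Il23a lay below the filter, at 54.0 and 17.4 against 14.4 and 5.75. Relative to macrophage identity genes, 6 of the 23 were higher and 8 lower, where 1.38% and 62.6% of all genes were. These genes respond to many receptors, and their link to the lectins was not tested.

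Among reported ligands and partners, 5 of 13 tested genes were called higher and 1 lower, where 6.8% and 8.73% of all genes were. The integrin gene Itgam (88.3 and 64.3 against 157 and 202) was below the filter in its vehicle mean and passed only through imatinib, and without it 4 of 12 were higher. These included the integrin gene Itgb2 (0.51), Klrb1b and Tlr4 (0.51), and Tlr2, which cooperates with dectin-1, rose by 0.32. The galectin gene Lgals3 fell by 0.31 on the log2 scale. Pdpn, the ligand of CLEC-2, gave 134 and 81.2 with vehicle and 87.0 and 82.9 with imatinib, with overlap (-0.23 ± 0.28, SE, adjusted p = 0.65). Sap130 was not measured by a probe set with 1 symbol. With macrophage identity genes set equal, none of the 13 was higher and 5 were lower, where 1.38% and 62.6% of all genes were. Itgam is among both these 13 genes and the genes that set that scale.

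Other myeloid C-type lectins were higher in 6 of 9 tested genes and lower in 0, where 6.8% and 8.73% of all genes were. Their median was 0.87. Cd209a, a relative of DC-SIGN, gave 139 and 90.5 with vehicle and 325 and 426 with imatinib (1.48 ± 0.22, SE). The mannose receptor gene Mrc1 rose by 1.34, Cd93 by 1.28 and Clec10a by 1.25. Clec5a, a DAP12-coupled receptor, did not pass (-0.20 ± 0.13, adjusted p = 0.36). Of the 21 genes listed, 12 lay below the filter. With macrophage identity genes set equal, all 6 stayed higher and 1 of the 9 was lower, where 1.38% and 62.6% of all genes were.

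**Figure D4:**
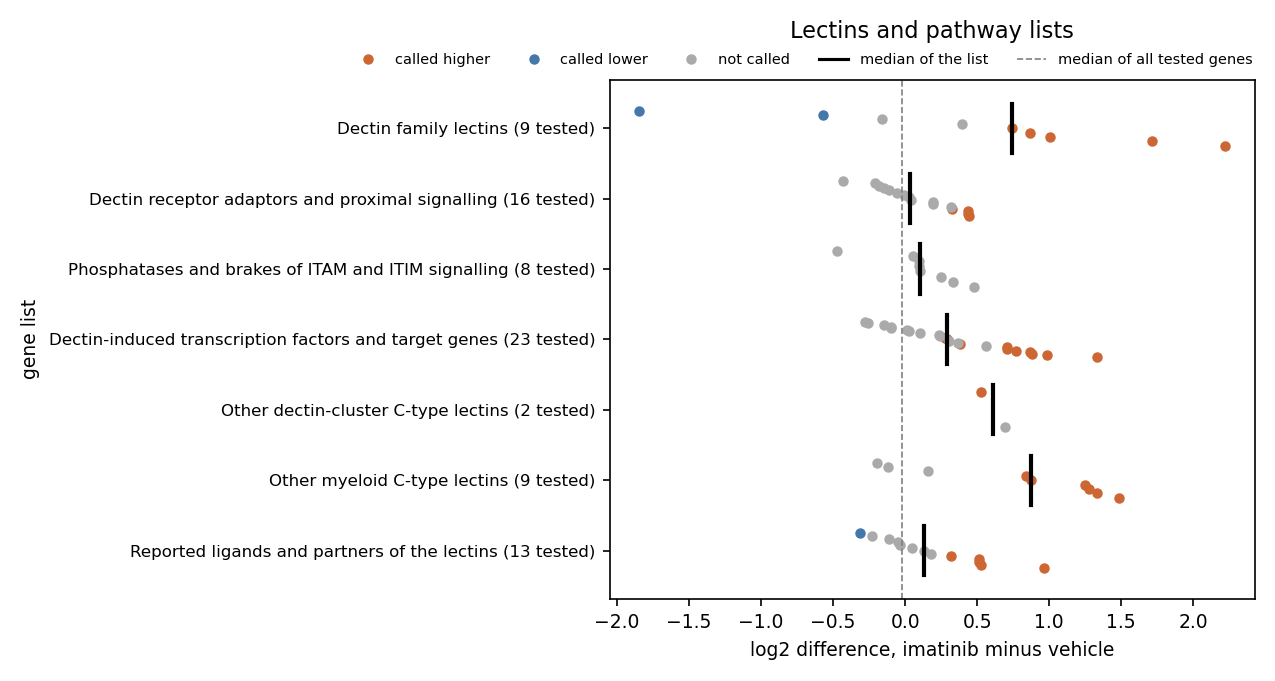
Log2 difference, imatinib minus vehicle, of each tested gene (points, coloured by call) in the dectin family and in 6 pathway lists, with the median of each list (black bar) and of all tested genes (dashed line at -0.02). The adaptor and phosphatase lists centre near 0, at 0.03 and 0.10, while the dectin family (0.74) and the other myeloid lectins (0.87) centre higher.

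Markers of several cell types moved with the groups. In bulk RNA, fewer cells of a type and less RNA per cell cannot be told apart. Over all 8145 tested genes 6.8% were called higher and 8.73% lower, the shares to set beside each marker list. Of 14 tested macrophage identity genes 10 were called higher and 0 lower, and 9 of 13 were without Itgam. Mertk (1.16) had the largest difference. Csf1r, a defining marker, was bright on each array (27103 and 28656 against 31382 and 29178) and was not called (log2 difference 0.12, limma adjusted p = 0.33). Spi1 (0.16), C1qa (0.05) and C1qb (-0.09) were not called either. The summed signal of the list ran from 142520.0 to 142734 with vehicle and from 169287 to 176634 with imatinib. The control probe sets of Gapdh had a 3′ to 5′ signal ratio, a measure of RNA integrity, of 2.91 and 2.76 with vehicle and 2.34 and 2.09 with imatinib. The part of the cell mixture or of RNA quality in the lectin differences was not tested.

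Beside the fall of Clec2h, all 14 tested epithelial markers were lower, where 8.73% of all tested genes were. Their median was -2.25, with the largest decreases in Krt19 (-2.89) and Dsp (-2.65). Their summed signal over 15 genes on the array ran from 39149 to 39679.8 with vehicle and from 7819 to 8094 with imatinib. Clec2h at -1.85 lay within the range of these markers (-2.89 to -1.30). The part of epithelial RNA in the Clec2h signal was not tested. Fibroblast markers were lower in 7 of 9 genes and higher in 0 (median -1.02; Loxl1 -1.51, Pcolce -1.35), and their summed signal went from between 7584 and 8271 to between 3729 and 3987.

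Beside the rise of Clec1b, 1 of 5 tested platelet and megakaryocyte markers was higher, where 6.8% of all tested genes were. The marker that rose was the chemokine gene Pf4 (3188 and 3207 against 5968 and 5618, log2 difference 0.85). Itga2b, a defining platelet integrin, gave 263 and 204 against 192 and 155 (-0.37 ± 0.20, SE, adjusted p = 0.27). Gp9 was near 0 on all 4 arrays, at 13.5 or lower, and Ppbp was at 52.9 or lower. The median of the list was -0.35. Its summed signal over 8 genes went from between 3788 and 3945 to between 6155 and 6450, most of it from Pf4.

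Beside the rise of Clec4n, Clec4a2 and Clec4b1, which dendritic cells also express, 3 of 10 tested dendritic cell markers were called higher and 0 lower. Over all tested genes 6.8% were higher and 8.73% lower. Flt3 (30.8 and 66.2 against 131 and 152) was below the filter with vehicle and passed only through imatinib, and without it 2 of 9 were higher. Cd209a, given above, led, while Itgax (0.06) and Irf4 (-0.01) did not pass. The summed signal went from between 9069 and 9469 to between 10494 and 10715. For Clec4d and Clec4e, which neutrophils also express, 2 of 4 tested neutrophil markers were called higher, S100a8 and Csf3r (0.70). S100a8 (61.0 and 43.6 against 117 and 134) was below the filter with vehicle and passed only through imatinib, and without it 1 of 3 was higher. The neutrophil sum over 11 genes went from between 739 and 946 to between 1149 and 1183, and Camp was near 0 at 10.5 or lower. The part of these cells was not tested.

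Beside the fall of Clec2d, which lymphocytes express, none of 11 T cell markers passed (limma, 1 at an unadjusted p below 0.05; median -0.14) and their summed signal overlapped between groups (3560 to 4173 and 3344 to 3583). Over all tested genes 6.8% were higher and 8.73% lower. Of 8 B and plasma cell markers Cd22 (0.84) and Cd79b (0.38) were higher and Ighm (-0.62) was lower, with a median of 0.04. Their sums overlapped too (50877 to 53922 and 49971 to 52682). Of 8 NK and cytotoxic markers Gzma (0.54) and Klrd1 (0.46) were higher, with a median of 0.27, and the sum went from between 2412 and 2465 to between 3126 and 3149. None of 5 endothelial genes passed (limma, 0 at an unadjusted p below 0.05). Their median was -0.01, and their sums were 1070.4 to 1246 and 1059 to 1103. The T cell gene Cd8b1 passed the filter only through imatinib, and the endothelial gene Egfl7 only through vehicle. Without them 0 of 10 T cell and 0 of 4 endothelial genes were called. Of 3 lymphatic and podoplanin-positive stroma genes Flt4 (-1.14) and Lyve1 (-0.44) were lower, and their sum over 4 genes went from between 1837 and 1878 to between 1150.2 and 1329. Of 5 GIST and interstitial cell of Cajal genes 3 were lower, led by Edn3 (-0.91) and Kit (-0.64), and the sum went from between 1738 and 1841 to between 1179.7 and 1224.

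**Figure D5:**
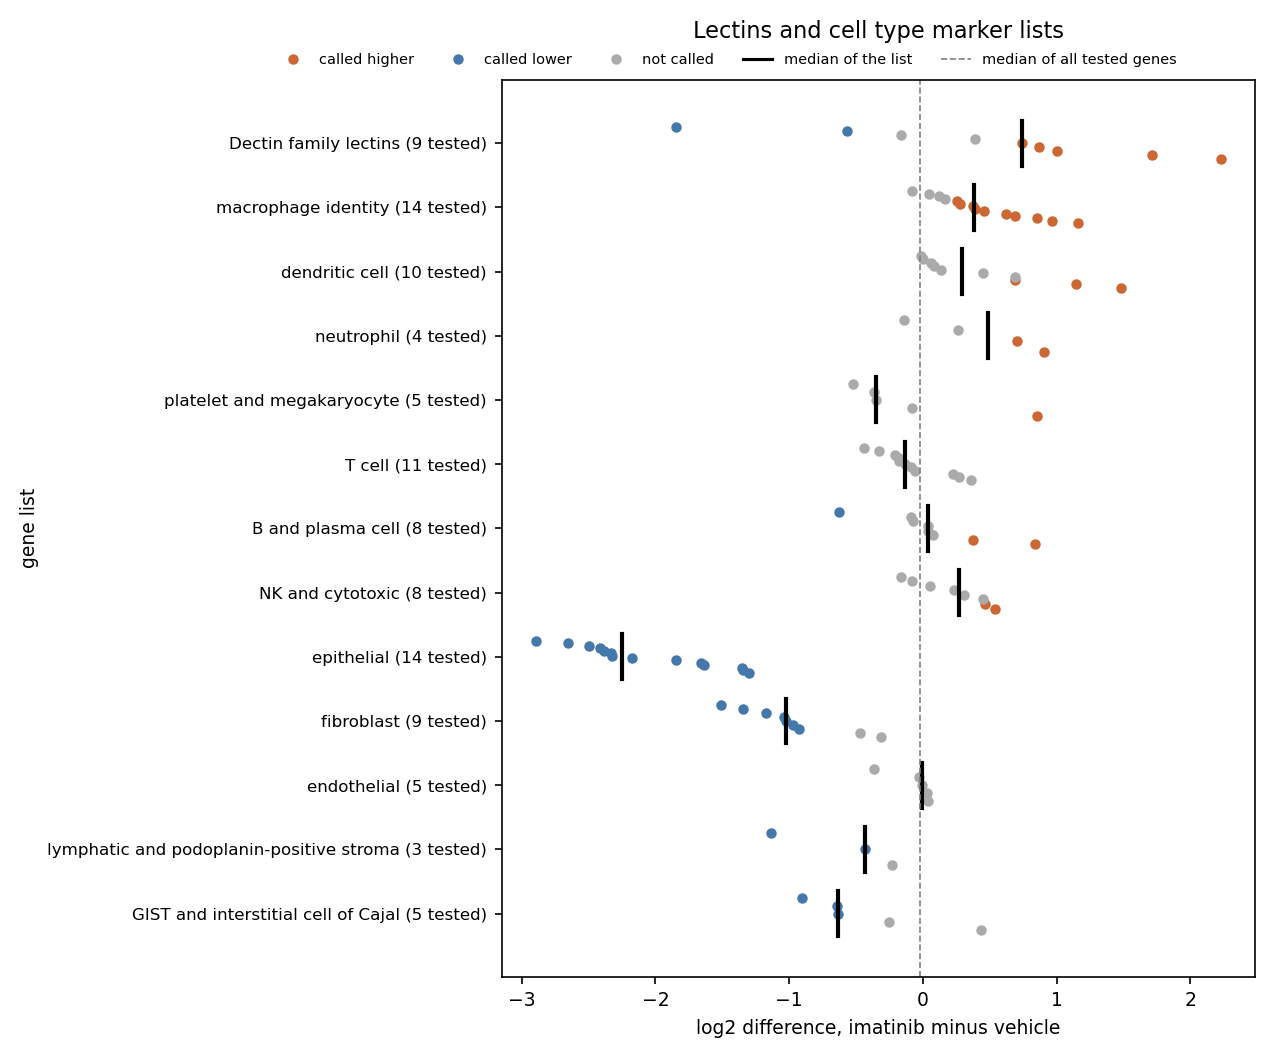
Log2 difference, imatinib minus vehicle, of each tested gene (points, coloured by call) in the dectin family and in 12 cell type marker lists, with list medians (black bars) and the median of all tested genes (dashed line). Clec2h at -1.85, by its brightest probe set, lies in the range of the epithelial genes, and Clec1b at 2.22 lies above every marker shown.

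The genes closest in pattern were found by the distance between log2 values centred on each gene's mean over the 4 arrays, which shows likeness on these arrays only. For Clec7a they were Saraf, the inflammatory cytokine gene Il1b, Clk1, Litaf and Sla, at distances of 0.050 to 0.062. Il1b gave means of 10354 and 16907, a log2 difference of 0.71 beside 0.74 for Clec7a. For Clec4n they were Pla2g7, a platelet-activating factor hydrolase (0.14), Adgre4, Klra17, Pilrb1 and the iron exporter gene Slc40a1 (0.34). Klra17 has near-identical relatives, so its identity is uncertain. For Clec1b they were Adamdec1, a metalloprotease of gut macrophages (0.14), Cd4, Adgre4, Ctsf and Abcg3 (0.55). Cd4 and Ctsf were below the filter with vehicle (means of 48.8 and 30.3) and passed only through imatinib. They could therefore be among these neighbours only because they were high with imatinib. Adgre4 was among the 5 nearest of both Clec4n and Clec1b, with a log2 difference of 1.87. For Clec4e they were Thra, Tomm7, Rab22a, Zmat3 and Top2a, at 0.016 to 0.039, as many genes with small differences lie close to it.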

How the data were processed

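The deposited table holds microarray signal intensities of 22690 probe sets on 4 arrays, which the authors computed with MAS5 (Expression Console), per the submitters' processing notes, with versions and settings not given in the sources used here. The algorithm removes background and brings arrays to a common mean (2% trimmed mean 500.3 on each), so dim signals are noisy and a shift of abundant transcripts moves the rest. Of 22626 probe sets without controls, 20380 had 1 symbol in the platform annotation. Signals were taken as log2(signal + 32). A gene was its brightest probe set by mean log2 value and was tested if that mean reached the 40th percentile (a signal of 79.8). Groups were compared with limma 3.58.1 in R 4.3.3 (lmFit, eBayes with trend, two-sided, Benjamini-Hochberg over 8145 genes, threshold 0.05). The prior had 8.71 and the residual 2 degrees of freedom. In simulated data the fit called 56 of 100 genes made to differ by 0.5 on the log2 scale and 95 of 100 made to differ by 1. It also called 12 of 7945 genes made not to differ. Each probe set was also fitted on its own. Promoters came from RefSeq tables of GRCm38.p6. Motifs were searched in Python 3.11.15.

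The lectins and the 6 pathway and 12 marker lists were chosen with earlier results of these data known. Genes named are the 9 lectins, up to 4 called members of each pathway list by size and up to 2 of each marker list, Fcer1g, Tyrobp, Syk, Card9, Ptpn6, Pdpn, Sap130 and the 5 nearest genes of 4 lectins. Other names (Plcg2, Vav1, Src, Rela, Rel, Relb, Nfkb2, Tnf, Il6, Il23a, Tlr2, Lgals3, Clec5a, Cd207, Clec2i, Csf1r, Spi1, C1qa, C1qb, Itga2b, Gp9, Ppbp, Itgax, Irf4, Camp, Cd8b1, Ighm, Egfl7, and those of the closing section) were chosen after their values were seen.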

Additional observations from a re-analysis of the deposited data

How the results depend on the processing

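The 5 rises of lectins kept their direction under each alternative run, and Clec1b, Clec4n, Clec4a2 and Clec7a also their side of the threshold. Their log2 differences ranged from 1.77 to 2.52 for Clec1b, 0.42 to 1.03 for Clec4a2 and 0.29 to 0.90 for Clec7a. Clec2h was called lower throughout (-2.30 to -1.60). Clec4n and Clec4d have no value without probe sets ending in _s_at, _x_at or _a_at, and Clec4d and Clec4e none under the 60th percentile filter. Clec4d turned to -0.057 with macrophage genes set equal, and Clec4e to 0.017 under quantile normalization and 0.15 with the mean of its probe sets; adjusted p was 0.75 or higher there, and the cause was not tested. Of 554 genes called higher and 711 called lower, 356 were higher without the filter (more genes tested) and 199 without a variance trend. With array medians set equal 1050 were higher and 492 lower (68.1% of calls higher, beside 43.8%), and with macrophage genes set equal 112 and 5100 (2.15%). Without a variance trend 517 were lower, 27.8% of calls then being higher. Leaving out 1 array gave 291 to 476 higher, 506 to 664 lower, 5 lectins higher each time and 1 to 2 lectins lower; the lone array of a group is then assumed to vary like the other group. Without vehicle replicate 1 there were 349 higher genes and without imatinib replicate 1 there were 291. The lectins called lower were 1 without a variance trend. The replicate number as a block gave 430 higher and 635 lower genes and changed no lectin call. Same-numbered arrays deviated with r = -0.13. With 2 arrays per group this is a single value, which cannot decide whether the numbers pair the arrays. Numbers crossed between groups, tried after seeing the data, gave 875 and 1087. Dim signal limits what can be said of Clec4e, which lay near the filter on 3 of 4 arrays.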

Other observations

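Of the other C-type lectins listed, 12 myeloid and 4 dectin-cluster genes were too dim to test. The Kupffer cell lectin gene Clec4f gave 105 and 80.3 against 28.2 and 4.17 (vehicle, then imatinib), and the liver sinusoidal lectin gene Clec4g 46.1 and 60.7 against 3.04 and 31.8. The DEC-205 gene Ly75 was at 80.8 and 88.1 against 78.3 and 60.4, and Olr1, which lies next to Clec7a and encodes the oxidised lipoprotein receptor, at 56.1 and 37.4 against 27.6 and 40.3. Klrb1f gave 28.5 and 16.4 against 7.04 and 6.67, while Klrb1a gave 27.1 and 46.4 against 44.4 and 71.2. These genes had no test, and their vehicle and imatinib arrays overlapped for Olr1 and Klrb1a. The arrays of Clec4f, Clec4g, Ly75 and Klrb1f did not overlap, as they did not for 56% of all tested genes. Of the other dim genes, Clec14a (30.8 and 29.8 against 41.4 and 80.9) and Colec12 (73.1 and 74.6 against 75.7 and 88.0) were higher with imatinib without overlap. Cd209b was lower without overlap, at 5.97 or less on each array.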
